A study of Homo sapiens with 8 samples.

Results

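The family of miR-28, miR-151 and miR-708 is a group of related mature miRNAs made from the hairpin genes MIR28, MIR151A, MIR151B and MIR708. Its members were the human miRNAs on the array named hsa-miR-28-5p, hsa-miR-28-3p, hsa-miR-151a-5p, hsa-miR-151a-3p, hsa-miR-151b and hsa-miR-708-5p, which is 6 of 2549, matched by name. Expression was measured in INA-6, a single human multiple myeloma (MM) cell line grown with interleukin-6. The cells received DMSO, the solvent control, or 1 µM of UNC1999, an inhibitor of the histone methyltransferase EZH2, for 120 hours, with 4 arrays labelled as biological replicates in each group. The sample titles name DMSO, whereas the treatment protocol in the labels names the inactive analog UNC2400 as the control, and the titles were followed. All 8 single-colour arrays lay on the same slide, where row 1 held 3 DMSO arrays and 1 UNC1999 array and row 2 held 1 and 3.

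A mature miRNA guides a silencing complex to messenger RNAs that pair with its seed, the bases just after its 5′ end, and each hairpin can give a 5p and a 3p arm. EZH2 writes the repressive mark H3K27me3, which can silence miRNA genes as well as coding genes. In mature B cells, miR-28 is known as a miRNA of the germinal centre, and its loss has been described in B cell lymphomas. The 5p arms of miR-28 and miR-708 share a seed, and miR-151b is a shortened form of miR-151a-5p, so that probes for the last 2 may bind the same molecule. These arrays cannot tell a cross-bound miR-151a-5p from miR-151b.

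The sequences below show the seed of miR-708-5p and the related 3p arms of miR-28 and miR-708. They do not show which members the probes can tell apart. They are from RefSeq on GRCh38.p14, written 5′ to 3′ with the seed, bases 2 to 8, in capitals. miR-28-3p came from chr3:188688834-188688855 on the plus strand, within the span of the gene LPP. miR-708-5p and miR-708-3p came from chr11:79402077-79402099 and chr11:79402032-79402053 on the minus strand, within the span of TENM4. miR-3139, from chr4:143343469-143343491 on the plus strand, has the seed of miR-708-5p but is not counted in the family.
hsa-miR-28-3p: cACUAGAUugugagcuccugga
hsa-miR-708-3p: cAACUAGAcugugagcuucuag
hsa-miR-708-5p: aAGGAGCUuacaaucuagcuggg
hsa-miR-3139: uAGGAGCUcaacagaugccuguu
miR-708-5p and miR-3139 shared the 7 bases AGGAGCU at the same place and no longer run. miR-28-3p and miR-708-3p had different seeds, with an 8-base run in common, UGUGAGCU, that began at base 9 of the one and base 10 of the other. MIR151A lay within the span of PTK2. MIR151B lay within the span of EVL, with MIR342 and MIR3173 as its neighbouring miRNA genes. Of the members, 2 had a sequence in the RefSeq table, and miR-28-5p, miR-151a-5p, miR-151a-3p and miR-151b are named only.

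Most of the family was not called detected in INA-6. The scanner software marks a miRNA as detected when its probes stand out from the background of their own array. By this mark miR-28-5p, miR-28-3p, miR-151a-3p and miR-708-5p were detected on 0 of 8 arrays, as were 77.7% of all human miRNAs. miR-151a-5p was detected on 7 arrays, 3 of the 4 DMSO arrays and all 4 UNC1999 arrays. miR-151b was detected on UNC1999 replicates 1 and 3 and on none of the 4 DMSO arrays. A miRNA entered the test if every array of either group detected it, a condition that miR-151a-5p alone met in the family and that 17.9% of all human miRNAs met.

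The DMSO arrays of replicates 2 and 3 stood apart from the other 6. They had 369 and 370 human miRNAs detected, against 474 to 500 on the others, and their lowest detected signals were 17.6 and 23.1, against 6.21 to 10.2. miR-151a-5p was missed on 1 of these arrays, DMSO replicate 3, where its signal of 22.3 lay just under the lowest detected signal of 23.1. Detection of a dim member was therefore compared between groups with unequal limits, and the part of this in the detection counts of miR-151a-5p and miR-151b was not tested. Signals here are sums of probe intensities after scaling of each array to its 75th percentile, and they can fall below 0 because the background was subtracted. The unscaled 75th percentile was itself 296 to 559 on the DMSO arrays and 534 to 729 on the UNC1999 arrays.

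**Figure D1:**
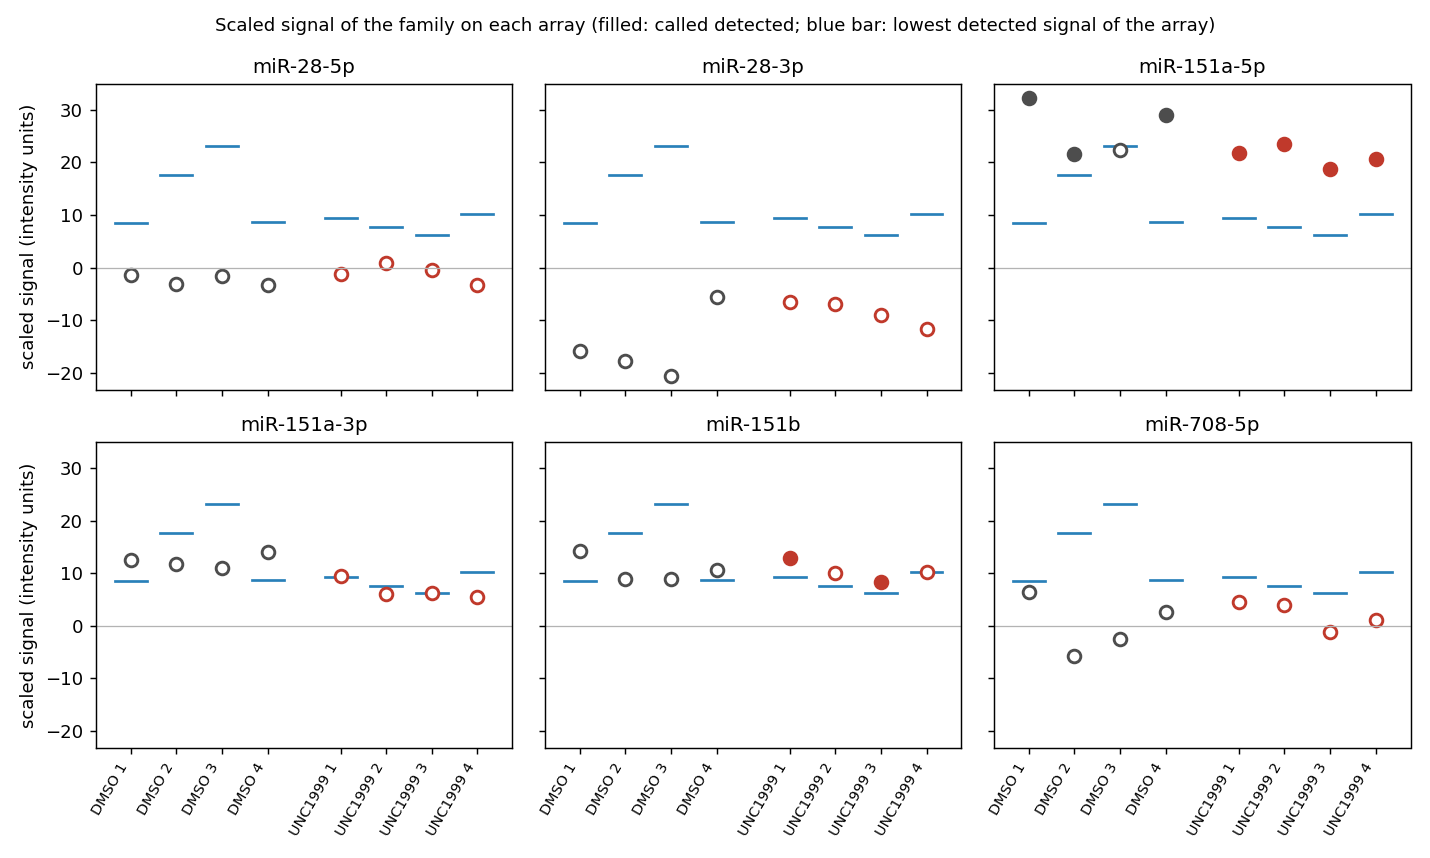
Scaled signal (vertical axis, intensity units) of the 6 members on each of the 8 arrays, with DMSO in grey and UNC1999 in red, filled points where the miRNA was called detected and a blue bar at the lowest detected signal of that array. miR-151a-5p lay between 18.8 and 32.3. On DMSO replicates 2 and 3 miR-151a-3p and miR-151b lay under the bars. On the other arrays miR-151b lay above them, and miR-151a-3p lay above them only on DMSO replicates 1 and 4 and UNC1999 replicate 1. miR-28-5p, miR-28-3p and miR-708-5p lay under the bars on all 8 arrays.

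miR-151a-5p, the arm of MIR151A best known for its link to cell migration, was the member detected on the most arrays, and it was not called changed. Its scaled signals were 32.3, 21.6, 22.3 and 29.0 on DMSO replicates 1 to 4. On the UNC1999 arrays they were 21.8, 23.4, 18.8 and 20.5. DMSO replicates 1 and 4 were the highest, and the other DMSO arrays lay within the range of the UNC1999 arrays, so that the groups overlapped, whereas those of 65.4% of the tested miRNAs did not. On the log2 scale, with values under a floor of 8.98 raised to it, the means were 4.70 ± 0.29 after DMSO and 4.40 ± 0.13 after UNC1999 (SD, n = 4 each). The log2 fold change was −0.30 with a standard error of 0.15, and limma gave a Benjamini-Hochberg adjusted p of 0.0867. As a fold this was 0.813, with a 95% confidence interval of 0.650 to 1.02, so that both a fall and no change lay within it. An exact permutation test of the log2 values, two-sided with n = 4 each, gave p = 0.143.

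The count of called members was thus 0 of 1 tested, while 70.6% of the 456 tested miRNAs were called, 34.6% lower and 36.0% higher after UNC1999. A call required a fold of 1.2 or more with an adjusted p no higher than 0.05. The DMSO arrays that stood apart bore on the call on miR-151a-5p. Without DMSO replicate 2 its log2 fold change was −0.39 with a limma adjusted p of 0.0381, and it was called lower. Without DMSO replicate 3 it was −0.37 with a limma adjusted p of 0.0523, and it was not called. Without both, a setting chosen after seeing the data, it was −0.54 with a limma adjusted p of 0.00475, and it was again called lower. Its lowest DMSO signals were on these arrays, so leaving them out raises the DMSO mean. Without DMSO replicate 1 the log2 fold change was −0.19 (limma adjusted p = 0.231), and without DMSO replicate 4 it was −0.24 (limma adjusted p = 0.190). Neither was called. Within row 1 of the slide the difference in log2 was −0.41, and within row 2 it was −0.07, with only 1 array of a group in each.

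The direction for miR-151a-5p depended on the scaling. Without scaling its signals averaged 22.0 ± 9.75 after DMSO and 27.1 ± 4.55 after UNC1999 (SD, n = 4 each), and an exact permutation test gave p = 0.371. The log2 fold change was then 0.40, and with scaling to the labelling spike-ins, RNAs added in known amounts, it was 0.52. The median of all tested miRNAs was 0.67 and 0.78 in these settings, against 0.01 as first scaled. Relative to that median, miR-151a-5p lay at −0.31 as first scaled, a position that another factor per array cannot move apart from the floor, since it shifts all miRNAs of an array alike. Settings that can move it gave −0.12 with quantile normalization, −0.09 with normexp background correction and −0.0037 with the scanner software's sum per miRNA. In the authors' processed values miR-151a-5p lay at 0.15 relative to the median with the same filter and at 0.42 over every feature, above the median in both. On DMSO replicate 3, where it was not detected, the authors' value was −3.13, as for undetected members on that array. DMSO replicates 1, 2 and 4 had 0.68, 2.16 and 0.73, above the UNC1999 arrays at 0.40 to 0.48. The standard error of the log2 fold change was 1.04 with the same filter. The scanner software's sum was likewise 0.1 on DMSO replicate 3, with a standard error of 0.48.

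**Figure D2:**
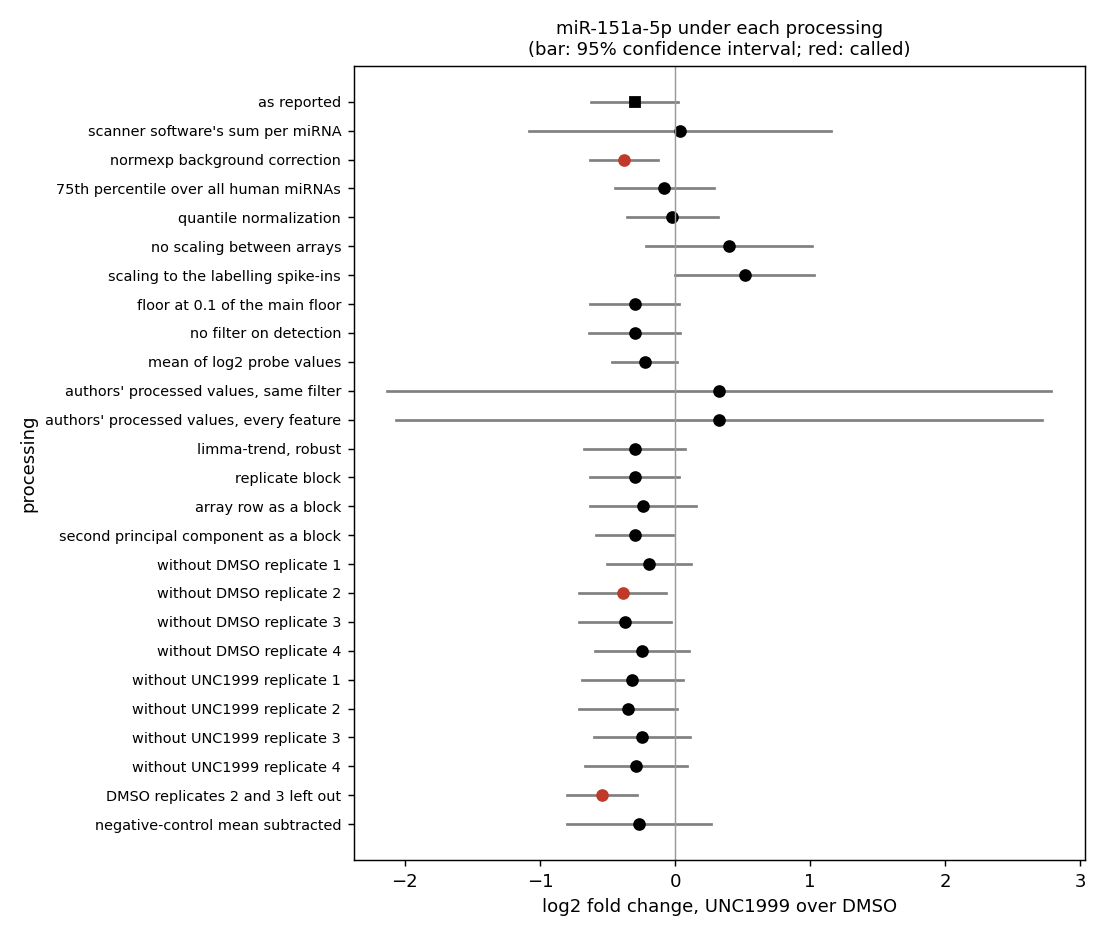
Log2 fold change of miR-151a-5p, UNC1999 over DMSO (horizontal axis), under the processing as reported and under each alternative, with bars for the 95% confidence interval and red where it was called. Of 25 alternatives 20 lay below 0 and 5 above, from −0.54 to 0.52, and 3 were called, all of them lower.

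The 2 probes of miR-151a-5p did not behave alike. The brighter probe had a scaled mean of 23.5 ± 3.10 after DMSO and 18.2 ± 2.41 after UNC1999 (SD, n = 4 each), and the groups did not overlap (exact permutation p = 0.0286, unadjusted, the smallest that 4 against 4 arrays can give), as was so for 18.7% of the probes of all human miRNAs. Unscaled, the brighter probe had the opposite direction, at 19.5 ± 7.72 after DMSO and 23.5 ± 4.95 after UNC1999 (SD, n = 4 each), with overlapping groups (exact permutation p = 0.371). The dimmer probe had 2.85 ± 2.22 and 2.90 ± 1.09, and its groups overlapped (exact permutation p = 1). The unscaled signal of the dimmer probe was between 0.400 and 5.23, and it exceeded the brightest negative-control probe on 5 of 8 arrays. The dimmer probe added to the DMSO spread of the sum, with scaled means of 5.71 on replicate 1 and 0.594 on replicate 2.

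miR-151a-3p, the other arm of the same hairpin, had higher scaled signals after DMSO than after UNC1999, but was called detected on no array. The signals were 12.5, 11.8, 10.9 and 14.1 on DMSO replicates 1 to 4. On UNC1999 replicates 1 to 4 they were 9.48, 6.08, 6.19 and 5.52. All 4 DMSO arrays lay above all 4 UNC1999 arrays, at 12.3 ± 1.34 against 6.82 ± 1.80 (SD, n = 4 each; exact permutation p = 0.0286, unadjusted, 1 of 6 members compared). Among the miRNAs detected on no array, 13.6% had groups that did not overlap, and 6.06% had them with UNC1999 lower.

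The separation of miR-151a-3p was not kept under other scalings. Unscaled, it averaged 10.2 ± 3.96 after DMSO and 8.82 ± 2.82 after UNC1999 (SD, n = 4 each), with overlapping groups (exact permutation p = 0.629), and 7.63% of the miRNAs detected on no array had separate groups on that scale. With the negative-control mean of each array subtracted, the groups overlapped at 7.97 ± 3.13 against 3.34 ± 2.55 (exact permutation p = 0.0571). Scaled to the spike-ins, the means were 9.60 ± 3.18 and 9.09 ± 2.51, and the groups overlapped (exact permutation p = 0.771). When every human miRNA was fitted whether or not it was detected, miR-151a-3p was called lower, with a log2 fold change of −0.43 and a limma adjusted p of 0.0165, where 7.06% of all human miRNAs were called lower. In that fit 3 of the 4 UNC1999 values of miR-151a-3p stood at the floor. Both of its probes gave non-overlapping groups when scaled, as was so for 18.7% of the probes of all human miRNAs. The scaled means were 8.37 ± 1.37 against 5.02 ± 1.17 for the brighter and 3.94 ± 0.279 against 1.80 ± 0.777 for the dimmer (SD, n = 4 each). Unscaled, the groups of both probes overlapped, at 7.01 ± 3.06 against 6.47 ± 1.85 and 3.18 ± 0.919 against 2.35 ± 1.13. The dimmer probe exceeded the brightest negative-control probe on 4 of 8 arrays.

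miR-151b, the shortened form from the EVL locus, did not differ beyond its spread. Its scaled signals were 14.2, 8.93, 8.82 and 10.7 on DMSO replicates 1 to 4. They were 12.8, 10.0, 8.40 and 10.3 on UNC1999 replicates 1 to 4. The highest and the middle values of the groups interleaved, and the means of 10.7 ± 2.53 and 10.4 ± 1.83 differed by less than either SD (n = 4 each; exact permutation p = 0.8). The signals of miR-151b on DMSO replicates 1 and 4 and on UNC1999 replicates 2 and 4 were above the lowest detected signal of their own arrays. The software did not call these detected. With spike-in scaling the groups of miR-151b separated, with UNC1999 higher, at 8.31 ± 3.02 after DMSO against 13.7 ± 2.17 after UNC1999 (SD, n = 4 each; exact permutation p = 0.0286). On that scale 16.9% of all human miRNAs, and 55.6% of those detected on 1 to 7 arrays, were likewise separate with UNC1999 higher. Nearly all of the miR-151b signal came from 1 probe, at 4.13 to 14.5 unscaled, while the other lay between −2.44 and 2.46. At the neighbouring gene in EVL, miR-342-3p, named here after its values were seen, was detected on all 8 arrays. Its scaled means were 395 ± 10.3 and 369 ± 41.3 (SD, n = 4 each). The limma fit gave miR-342-3p a log2 fold change of −0.11 and an adjusted p of 0.367.

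Neither arm of miR-28 rose above the background in either group. miR-28-5p, the arm with the shared seed, had scaled signals of −1.50, −3.12, −1.57 and −3.28 after DMSO. After UNC1999 they were −1.23, 0.778, −0.551 and −3.37. The groups overlapped (exact permutation p = 0.2, n = 4 each), and only UNC1999 replicate 2 lay above 0. miR-28-3p had −15.9, −17.8, −20.6 and −5.67 after DMSO. After UNC1999 it had −6.47, −6.93, −8.95 and −11.7, which overlapped the DMSO values through DMSO replicate 4 (exact permutation p = 0.143, n = 4 each). Values this far under 0 hold no level of miR-28-3p, and their lowest points fell on DMSO replicates 1 to 3. None of the 6 miR-28 probes exceeded the brightest negative-control probe on any array. A change of either arm was therefore not detectable on these arrays, which is not the same as an absence of miR-28.

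miR-708-5p, which shares its seed with miR-28-5p, was also not detected. Its scaled signals were 6.48, −5.77, −2.56 and 2.56 after DMSO. After UNC1999 they were 4.59, 4.05, −1.19 and 1.05, inside the DMSO range on all 4 arrays (exact permutation p = 0.571, n = 4 each). Its brightest probe ran from −1.50 to 4.18 unscaled and exceeded the brightest negative control on 2 arrays. The other arm, miR-708-3p, had scaled signals of −11.0 to −4.20 after DMSO and −10.3 to −5.42 after UNC1999. miR-3139, with the seed shown above, had −9.07 to −0.987 after DMSO and −5.14 to −0.235 after UNC1999. Both were detected on 0 of 8 arrays.

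Set against the negative controls, the probes that stood out on every array were 1 each of miR-151a-5p, miR-151a-3p and miR-151b. The 7 negative-control probes of an array, which match no miRNA, had a mean spot intensity of 1.62 ± 0.569 on the DMSO arrays and 2.13 ± 0.591 on the UNC1999 arrays, unscaled (SD, n = 4 each). Of the 16 probes of the family, 3 exceeded the brightest of them on all 8 arrays, as 19.3% of the probes of all human miRNAs did. These 3 were the brighter probes of miR-151a-5p, at 11.8 to 27.7, of miR-151a-3p, at 3.87 to 10.7, and of miR-151b, at 4.13 to 14.5. The margin of miR-151a-3p was narrow on UNC1999 replicate 4, at 4.60 against a brightest control of 4.21. A further 10 probes exceeded it on no array. After scaling, the groups of 4 of the 16 probes did not overlap, as was so for 18.7% of the probes of all human miRNAs. Before scaling the groups of 1 of the 16 did not overlap. The share over all probes was not computed on that scale, so this count is not read as a result about the family. The probe that kept its separation was the second brightest of miR-28-3p, at −3.76 ± 1.03 after DMSO and −1.72 ± 0.764 after UNC1999 unscaled (SD, n = 4 each), below 0 throughout.

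**Figure D3:**
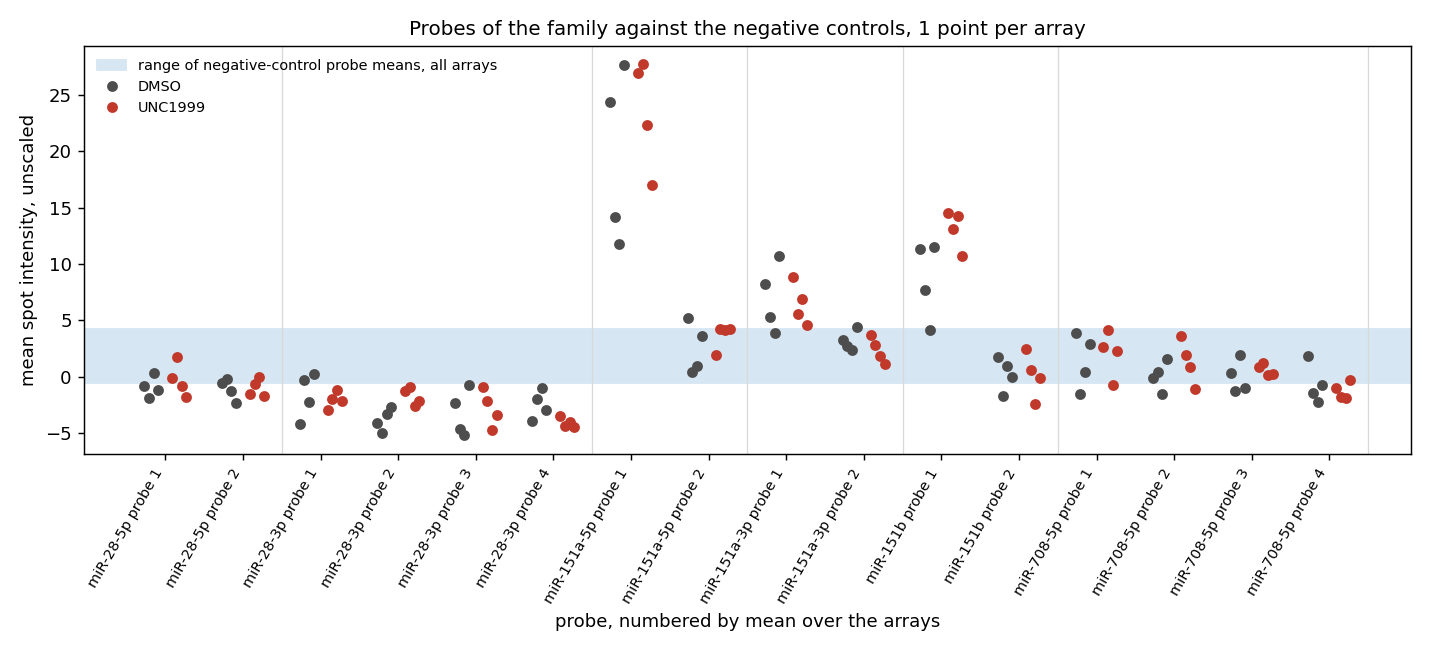
Unscaled mean spot intensity (vertical axis) of each of the 16 probes of the family, 1 point per array, DMSO in grey and UNC1999 in red, with a blue band for the range of negative-control probe means over all arrays. The brighter probe of miR-151a-5p stood above the band on every array, at 11.8 to 27.7. The brighter probes of miR-151b, at 4.13 to 14.5, and of miR-151a-3p, at 3.87 to 10.7, rose above it but had their lowest points within it. All probes of miR-28 lay within the band or under it.

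Other miRNAs of germinal-centre B cells and plasma cells were read from a list of 16 that are on the array. The list was chosen with earlier results of these data known, so its counts and median describe it and test nothing. Of these 6 were detected on no array, 9 were tested, 5 were called lower after UNC1999, 1 higher and 3 neither, with a median log2 fold change of −0.56 against 0.01 over all tested miRNAs. Over all tested miRNAs 34.6% were called lower and 36.0% higher. miR-150-5p, a regulator of B cell maturation, was detected on all arrays and fell by 0.56 on the log2 scale (standard error 0.10, limma adjusted p = 0.00105). miR-148a-3p, a miRNA abundant in plasma cells, fell by 1.30 on the same scale, and miR-17-5p, of an oncogenic miRNA cluster, fell by 0.92. miR-125b-5p and miR-9-5p, both described as regulators of the plasma cell factor BLIMP-1, had −0.999 and −0.88. miR-223-3p, a myeloid miRNA, was the listed miRNA called higher, at 1.18, but with normexp background correction it was 0.04 and not called.

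The directions in the list depended on the scaling, as for miR-151a-5p. Without scaling the list had a median of 0.13, with 0 called lower and 2 higher, and with spike-in scaling 0.25, with 0 lower and 4 higher. Of all 456 tested miRNAs, 4 were called lower and 234 higher without scaling, and 7 lower and 295 higher with the spike-ins. Relative to the median of all tested miRNAs, the list median was −0.58 as first scaled and −0.06 with normexp. miR-155-5p, a miRNA of activated germinal-centre B cells, was detected on 0 DMSO arrays and 2 UNC1999 arrays, with scaled signals of 10.1 to 14.5 and 16.1 to 21.4, and was not tested. On this scale the groups of 65.4% of the tested miRNAs did not overlap. The detection counts of miR-155-5p too came from groups with unequal limits, and its signals under other scalings are not given here. miR-181a-5p, miR-181b-5p and miR-21-5p were not called, at −0.22, −0.04 and −0.01, but all 3 were called higher with spike-in scaling, and miR-181b-5p also without scaling. As the RNA came from whole cultures, fewer cells with a miRNA and less of it per cell cannot be told apart for any member or listed miRNA.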

How the data were processed

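Total RNA of 8 INA-6 cultures was hybridised to single-colour miRNA arrays. The authors deposited scanner output made with Agilent Feature Extraction 10.7.3.1, with a background-subtracted intensity per spot that was not normalized between arrays, and a table of quantile-normalized log2 values that was used only as an alternative. Here spots marked as outliers, 1392 to 2292 of 53144 per array, were left out, probe means were summed per miRNA, and arrays were scaled by the 75th percentile of the 346 miRNAs that every array detected. Signals below 8.98, the median of the arrays' lowest detected signals, were raised to it before log2, which understates changes of dim miRNAs. The moderated test of limma 3.58.1 (R 4.3.3; lmFit, eBayes, no block) was applied to the 456 human miRNAs that all arrays of either group detected. Other values were compared by two-sided exact permutation tests. The limma call was tested on simulated log2 values, and the permutation test on a worked example. Outlier removal, summing, scaling, the floor and the detection condition were not tested in this way.

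The members and lists were chosen with earlier results of these data known. The miRNAs to be named were the members, other arms of their hairpins, miRNAs with a member's seed, and the 2 most alike in pattern to each member detected on all 8 arrays. As 0 members were, none were named so. The seed search covered the 2 members with a sequence. Of the array's human miRNAs, 2248 matched RefSeq by name. The labels call the replicates biological without saying how they were grown, so p-values measure the spread between these arrays. The number of arrays limits the precision.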

Additional observations from a re-analysis of the deposited data

Results flagged for a closer look

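One array of miR-151a-3p stood apart from the rest of its group. After UNC1999 its scaled signal was 9.48 on replicate 1, while the other 3 arrays lay between 5.52 and 6.19, although miR-151a-3p was called detected on none of them. This was 1 of 12 groups of 4 arrays examined, where chance gives about 1 in 20, or 0.6 here.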

How the results depend on the processing

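miR-151a-5p had a log2 fold change below 0 in 20 of 25 alternatives. It was above 0 with the scanner software's sum per miRNA (0.036), without scaling (0.40), with the spike-ins (0.52) and with the authors' processed values, tested with the same filter or over every feature (0.33 in both), and it was called in none of these. In the software's sum and the authors' values, DMSO replicate 3 held the value of an undetected miRNA. For miR-151a-5p, the other settings are described next. miR-151a-5p was called lower with normexp background correction (−0.38, limma adjusted p = 0.0151), without DMSO replicate 2 (−0.39, limma adjusted p = 0.0381) and with DMSO replicates 2 and 3 left out (−0.54, limma adjusted p = 0.00475), the last chosen after seeing the data, as was subtracting the negative-control mean. Over the 25 the limma adjusted p ran from 0.00475 to 0.955. Leaving out 1 array gave −0.39 to −0.19. Each of the 3 settings that called it raised the count of called members from 0 to 1, as did testing without a filter, through miR-151a-3p, so leaving out 1 array gave 0 to 1. In these 3 settings, in the order given, 230, 158 and 162 of 456 tested miRNAs were called lower, and 180 of 2549 without a filter. With normexp the median of all tested miRNAs was −0.29, and miR-151a-5p lay at −0.09 relative to it. The count of called miRNAs, 322, was 206 over every feature of the authors' values and, with the methods' t-test of the general statistics section, paired by replicate number, 236 unadjusted and 152 after Benjamini-Hochberg, while leaving out 1 array gave 292 to 326. Higher calls were 164 of 322 in the main setting, 54 of 284 with normexp, 234 of 238 without scaling, 295 of 302 with the spike-ins and 192 of 280 with the percentile over all human miRNAs. Same-numbered arrays deviated with correlations of 0.179, 0.273, −0.415 and −0.392, and 1 of 4 DMSO arrays was most like its own number. So few arrays cannot decide whether the numbers pair them, since such a match can also arise by chance. With the replicate block miR-151a-5p had −0.30 (limma adjusted p = 0.0938) and 308 miRNAs were called. The causes were not tested. Fold changes of the other 5 members, ratios between members, and miR-151a-5p among miRNAs detected on all 8 arrays were not run wherever the detection condition applied, since they failed it. Signal over background limits miR-28-5p, miR-28-3p and miR-708-5p, for which no fold is given.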
